A study of Mus musculus with 15 samples.

Results

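The 33 genes described here encode the proteins that bring glucose into the heart muscle cell, split it by glycolysis, store it as glycogen and pass its carbon on as lactate or pyruvate. They were given as a list of symbols. Of the 33, 31 were listed in the files of every group and were tested among 12267 genes. The glycogen branching enzyme Gbe1 and the phosphorylase kinase subunit Phkb were listed only for Control and AngII, and were not tested. RNA came from hearts of male C57BL/6 mice and was sequenced after removal of rRNA, in 15 libraries. There were 3 groups of 5 mice. One was Control, another received AngII, an infusion of angiotensin II, the peptide hormone that constricts vessels and raises arterial pressure. The last, AngII+QDG, was given that infusion together with QDG, an agent known here by its abbreviation alone. Neither dose nor duration is given in the sources used here, and the labels name no vehicle for Control. The study asked which genes and pathways differ between these groups.

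The adult heart draws most of its energy from fatty acids and uses glucose and lactate as further fuels. Glucose enters through facilitative transporters, is trapped by hexokinase and is committed to glycolysis by phosphofructokinase, which is tuned by the bifunctional PFKFB enzymes. Pyruvate is then exchanged with lactate by lactate dehydrogenase or enters the mitochondria, a step that the pyruvate dehydrogenase kinases restrain. Glycogen is built from UDP-glucose and broken down by phosphorylase, which phosphorylase kinase switches on. Several of these steps have isozymes with different tissue patterns, so the heart libraries hold muscle types and more widespread types side by side.

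AngII libraries held higher levels than Control of 5 of the 31 members, spread over 5 of the 6 stages described below: Slc16a1, Pfkp, Pgam1, Pdk1 and Ugp2. No member was lower (limma, adjusted p under 0.05 over all 12267 genes). The 5 are 16.1% of the members, against 13.4% of all genes called in either direction and 11.9% called higher (1.48% were called lower), so the share among members was near that of all genes. Adding QDG to AngII went with no called difference in any member. The 250 bases before the RefSeq start of these 5 genes are shown because they are the members that passed in AngII, and because the factors of the hypoxia response, known to act on glycolytic genes, bind sites with the core ACGTG or GCGTG. Sequences are RefSeq, GRCm38.p6, 5′ to 3′ on the gene's strand, with each such core in capitals (CACGT or CACGC where it lies on the other strand). Slc16a1 is chr3:104638414-104638663 (+), Pfkp is chr13:6648772-6649021 (-), Pgam1 is chr19:41911621-41911870 (+), Pdk1 is chr2:71872974-71873223 (+) and Ugp2 is chr11:21371268-21371517 (-).
Slc16a1: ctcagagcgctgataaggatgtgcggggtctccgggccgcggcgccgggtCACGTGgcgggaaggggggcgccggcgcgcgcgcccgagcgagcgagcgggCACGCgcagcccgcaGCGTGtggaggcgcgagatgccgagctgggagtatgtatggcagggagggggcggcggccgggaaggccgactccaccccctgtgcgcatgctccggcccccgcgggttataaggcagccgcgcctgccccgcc
Pfkp: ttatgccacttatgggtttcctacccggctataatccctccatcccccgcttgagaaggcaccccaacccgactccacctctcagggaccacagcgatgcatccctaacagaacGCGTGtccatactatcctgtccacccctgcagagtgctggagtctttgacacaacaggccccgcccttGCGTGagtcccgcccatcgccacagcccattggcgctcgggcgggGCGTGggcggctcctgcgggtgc
Pgam1: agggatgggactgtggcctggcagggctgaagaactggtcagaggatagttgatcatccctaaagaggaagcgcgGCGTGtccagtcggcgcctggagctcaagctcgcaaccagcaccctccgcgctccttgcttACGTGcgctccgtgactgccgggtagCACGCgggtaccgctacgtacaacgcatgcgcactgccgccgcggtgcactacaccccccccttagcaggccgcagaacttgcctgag
Pdk1: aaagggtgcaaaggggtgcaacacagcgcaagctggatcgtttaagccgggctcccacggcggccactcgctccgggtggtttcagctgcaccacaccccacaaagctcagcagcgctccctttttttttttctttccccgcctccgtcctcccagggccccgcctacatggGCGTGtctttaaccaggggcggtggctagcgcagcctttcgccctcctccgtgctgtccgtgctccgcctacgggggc
Ugp2: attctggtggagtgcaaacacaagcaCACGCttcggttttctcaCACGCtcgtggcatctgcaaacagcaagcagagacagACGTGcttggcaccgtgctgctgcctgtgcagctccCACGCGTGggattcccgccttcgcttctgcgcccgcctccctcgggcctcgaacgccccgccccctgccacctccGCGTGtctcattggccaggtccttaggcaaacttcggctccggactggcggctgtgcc
The last 6 bases of the Pfkp window lie inside the gene as GENCODE M21 places it. In that annotation the genes span chr3:104638668-104658462 (Slc16a1), chr13:6579768-6648777 (Pfkp), chr19:41911923-41918660 (Pgam1), chr2:71873224-71903858 (Pdk1) and chr11:21321138-21371201 (Ugp2). All 5 windows held at least 1 core, and Ugp2 held 6 overlapping or separate matches. RefSeq windows were matched by symbol for 32 of the 33 members (Slc2a4 had none), taking the start nearest to that of the member's most abundant listed transcript. That start was still 247045 bases away for Gbe1, 22331 for Pfkfb2, 6262 for Eno1 and 3246 for Gapdh. Members have 1 window each, whereas the background shares count every window of a gene. A core was in 24 of the 32 (75%), against 38.6% of all 32851 windows and 55.5% of the 11396 windows of genes in these files. Members' windows were also richer in G and C, with a median of 60% against 52.4% over all windows. The median over windows of genes in the files was not measured. The E-box CACGTG, which contains the core on both strands, was in 2 windows (Slc16a1 and Pdk2, 6.25% against 6.02% of all windows and 8.25% of those of genes in the files). The GC box GGGCGG was in 16 (50%, against 32.7% of all windows and 57.7% of those of genes in the files). AAGGTCA, to which estrogen-related receptors bind, and the TATA box TATAAA were in 0 of 32 on either strand, against 4.08% and 12.4% of all windows and 2.90% and 6.58% of those of genes in the files. A match describes letters only.

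Before the comparisons, 1 property of the libraries must be given. If 1 step in the low values is 1 fragment, the libraries held 51606000 to 78334000 fragments. The mean log2 level of 2277 protein-coding transcripts under 1000 nt, less that of 6255 of at least 3000 nt, had a mean of 1.20 ± 0.18 for Control, against 0.84 ± 0.07 for AngII and 0.81 ± 0.10 for AngII+QDG (± SD over 5 libraries), with no overlap of Control with either other group. It was highest in Control 3 (1.40) and Control 5 (1.36), and Control 5 had 20.6% of transcripts at 0, where the other 14 libraries had 4.86 to 12.7%. Control 5 held the lowest Control value of 24 of the 31 members (53.4% of all genes) and the lowest of all 15 libraries for 19. The heart muscle label fitted its markers: 10 of 10 cardiomyocyte markers were listed, with a summed level of 24415 to 40910.5 FPKM (fragment counts scaled to transcript length and library size). None of 9 skeletal muscle markers was listed in the files of all groups. That does not show their absence, since none of the 6 protein-coding Gapdh transcripts was listed either. In bulk tissue, fewer cells of a type and less RNA per cell cannot be told apart.

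Among the transporters, Slc16a1 (MCT1, which carries lactate and pyruvate across the cell membrane) was the member with the smallest p in AngII against Control. Replicates 1 to 5, in that order here and below, stood at 29.5, 27.6, 30.9, 29.4 and 23.7 FPKM for Control, 40.1, 56.2, 42.6, 47.3 and 54.0 for AngII and 50.6, 35.9, 48.1, 52.0 and 49.6 with AngII+QDG. Every library of both treated groups lay above every Control library, by a mean of 1.70-fold in AngII. The difference on the log2(FPKM + 1) scale was 0.74 ± 0.13 in AngII (SE, limma adjusted p = 0.00805) and 0.72 ± 0.13 in AngII+QDG (adjusted p = 0.00366), and AngII+QDG differed from AngII by -0.02 (95% interval -0.29 to 0.24). Slc2a4 (GLUT4, the insulin-responsive glucose transporter) had the highest level of the transport genes and varied widely. It was at 66.5, 147, 104, 97.1 and 3.73 FPKM for Control, 103, 114, 70.0, 117 and 64.2 for AngII and 35.6, 81.7, 26.4, 45.3 and 54.1 with AngII+QDG. Control 5 stood far below the rest, AngII+QDG libraries were mostly the lower ones, and all groups overlapped. The mean in AngII+QDG was 0.52 times that in AngII, but the log2 difference of -0.99 ± 0.71 was not called (adjusted p = 0.998); the difference from Control was -0.24 ± 0.71 (adjusted p = 0.837). Without Control 5 that difference was -1.12 and passed (adjusted p = 0.0275). Slc2a1 (GLUT1, the basal transporter) averaged 4.60 ± 0.334, 4.79 ± 0.676 and 4.60 ± 1.08 FPKM in the order of the groups, here and below Control, AngII and AngII+QDG (AngII against Control 0.04, 95% interval -0.25 to 0.34).

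**Figure D1:**
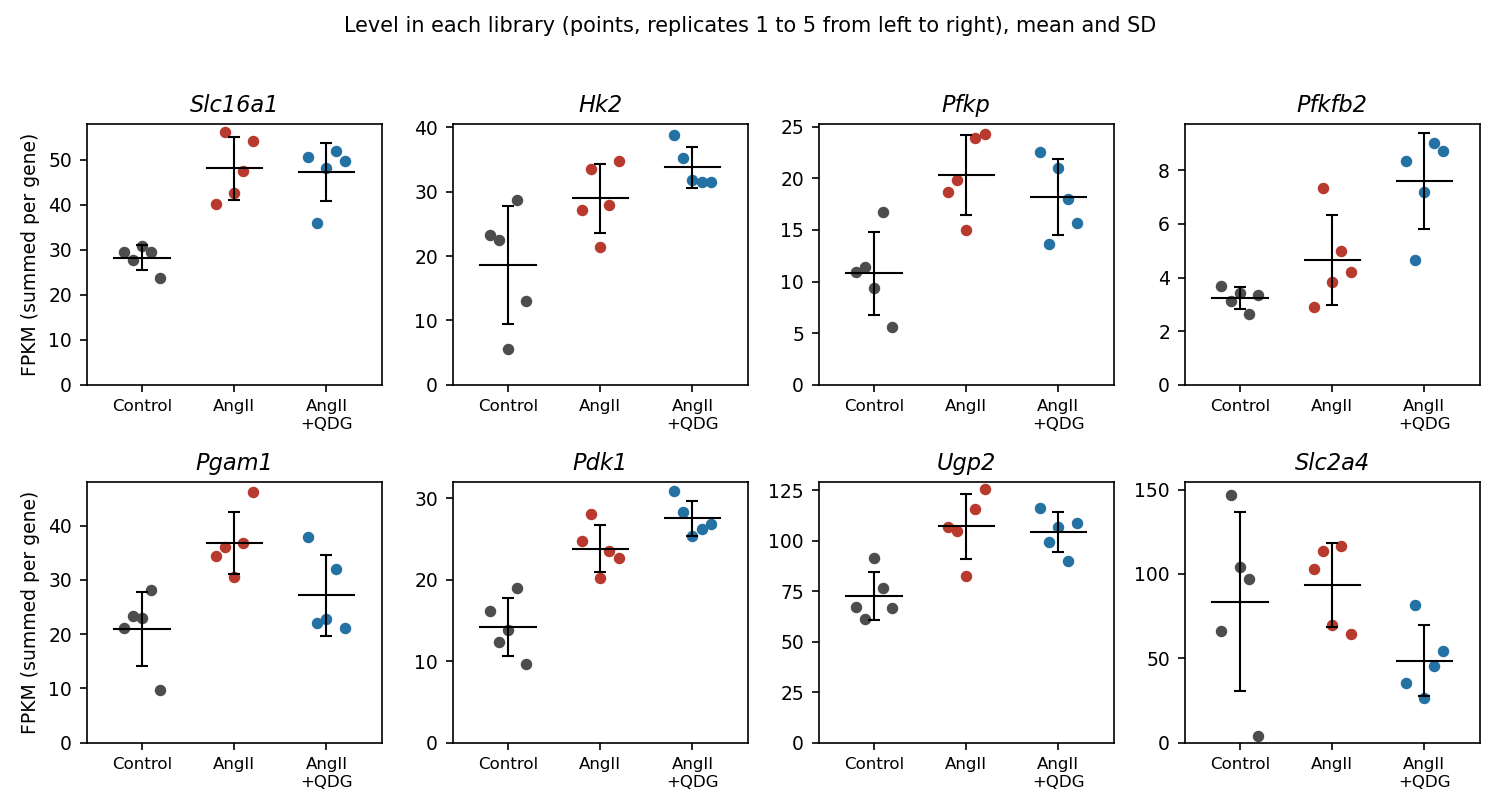
FPKM summed per gene (vertical axes, from 0) in each library of Control, AngII and AngII+QDG for the 7 members called in a comparison and for Slc2a4; bars are the mean and SD over 5 libraries. Slc16a1 and Pdk1 in both treated groups lie above every Control library, while Slc2a4 spans 3.73 to 147 FPKM within Control alone.

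Hexokinase traps glucose as glucose 6-phosphate, and HK2 is the insulin-regulated type of muscle. Hk2 was at 23.3, 22.5, 5.61, 28.7 and 13.0 FPKM for Control, 27.2, 33.6, 21.5, 27.9 and 34.7 for AngII and 38.8, 35.3, 31.9, 31.5 and 31.5 with AngII+QDG. All AngII+QDG libraries lay above all Control libraries, while AngII overlapped Control; Control 3 and Control 5 were the lowest. The log2 difference from Control was 1.00 ± 0.31 in AngII+QDG (limma adjusted p = 0.0374) and 0.77 ± 0.31 in AngII (adjusted p = 0.109). Without Control 3 and Control 5 the difference in AngII+QDG was 0.43 and no longer passed (adjusted p = 0.0772). Hk1, the widespread type, read here from 1 of its 18 protein-coding transcripts and from neither principal one, averaged 15.7 ± 11.2, 23.5 ± 7.14 and 23.5 ± 6.65 FPKM and was not called. Gpi1, which turns glucose 6-phosphate into fructose 6-phosphate, had the highest level of these 3 genes, with 128, 191, 157, 218 and 112 FPKM for Control, 195, 130.5, 137, 195 and 129.6 for AngII and 159, 197, 194, 157 and 142 with AngII+QDG. Its libraries overlapped throughout, and the log2 difference of AngII from Control was -0.02 ± 0.19.

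At the phosphofructokinase step the muscle subunit Pfkm made up most of the mRNA and the platelet-type subunit Pfkp was the one called, on its FPKM summed over transcripts. Pfkm stood at 259, 250.4, 219.6, 305 and 130.0 FPKM for Control, 270.2, 253, 249, 251 and 261 for AngII and 239.7, 323, 314, 225 and 226 with AngII+QDG, with AngII in a narrow band inside the Control range. Pfkp was at 10.9, 11.4, 9.42, 16.7 and 5.59 FPKM for Control, 18.7, 19.8, 14.96, 23.9 and 24.3 for AngII and 22.6, 13.7, 20.98, 18.0 and 15.7 with AngII+QDG. Only Control 4, the highest Control library, reached into the treated ranges. The log2 difference from Control was 0.90 ± 0.22 in AngII (adjusted p = 0.0250) and 0.75 ± 0.22 in AngII+QDG (adjusted p = 0.0313). That sum mixes transcript types. The protein-coding transcript Pfkp-207 averaged 5.84 ± 1.75, 10.3 ± 2.28 and 8.93 ± 2.27 FPKM (SD, n = 5). In a separate limma fit over 28475 transcripts it was not called, at 0.75 ± 0.22 in AngII (adjusted p = 0.0781) and 0.55 ± 0.22 in AngII+QDG (adjusted p = 0.147). Pgam1, with 1 listed transcript and a difference of 0.84 in AngII in both fits, had a limma adjusted p of 0.0366 by gene and 0.0746 by transcript. A call lost between these fits thus cannot be put down to transcript types. The other Pfkp transcripts retain introns, chief among them Pfkp-206 at 2.93 ± 2.08, 7.22 ± 1.84 and 6.14 ± 1.07 FPKM, and Pfkp-208 was listed for AngII+QDG alone. On transcripts listed for every group, AngII+QDG differed from Control by 0.67 ± 0.22 (adjusted p = 0.0482). As a share of the 3 subunits' summed FPKM, Pfkp was 3.88 ± 0.41% in Control, 6.48 ± 1.14% in AngII (no overlap with Control) and 5.91 ± 1.5% in AngII+QDG (overlapping). The liver-type subunit Pfkl was not called, with log2 differences from Control of 0.28 ± 0.22 and 0.10 ± 0.22.

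The bifunctional enzymes set the level of fructose 2,6-bisphosphate, the main activator of phosphofructokinase, and Pfkfb2 is the heart type. Pfkfb2 was at 3.69, 3.11, 3.42, 2.63 and 3.35 FPKM for Control, 2.91, 7.35, 3.84, 5.01 and 4.21 for AngII and 8.36, 4.66, 7.21, 9.03 and 8.73 with AngII+QDG. AngII+QDG lay wholly above Control, and 4 of its 5 libraries lay above all but AngII 2. The log2 difference from Control was 1.00 ± 0.20 in AngII+QDG (limma adjusted p = 0.00563) and 0.38 ± 0.20 in AngII (adjusted p = 0.203). AngII+QDG exceeded AngII by 0.62 ± 0.20, the smallest p of the 31 members there, but its limma adjusted p was 0.748. The Pfkfb2 sum also mixes transcript types. Its 1 listed protein-coding transcript, Pfkfb2-203, averaged 0.408 ± 0.395, 1.58 ± 0.685 and 2.31 ± 1.04 FPKM. Pfkfb2-209, which retains an intron, averaged 1.65 ± 1.04, 1.78 ± 0.946 and 3.49 ± 1.63. Pfkfb2-205, annotated as subject to nonsense-mediated decay, averaged 1.19 ± 1.20, 1.30 ± 1.16 and 1.79 ± 0.314. Pfkfb1, the type of liver and skeletal muscle, averaged 4.49 ± 1.74, 3.44 ± 1.24 and 5.17 ± 0.769 FPKM, and its difference of 0.51 ± 0.23 between AngII+QDG and AngII also missed the threshold (adjusted p = 0.998). That sum includes Pfkfb1-207, a transcript listed for AngII+QDG alone, and on transcripts listed for every group the difference was 0.38 ± 0.23 (adjusted p = 0.999).

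**Figure D2:**
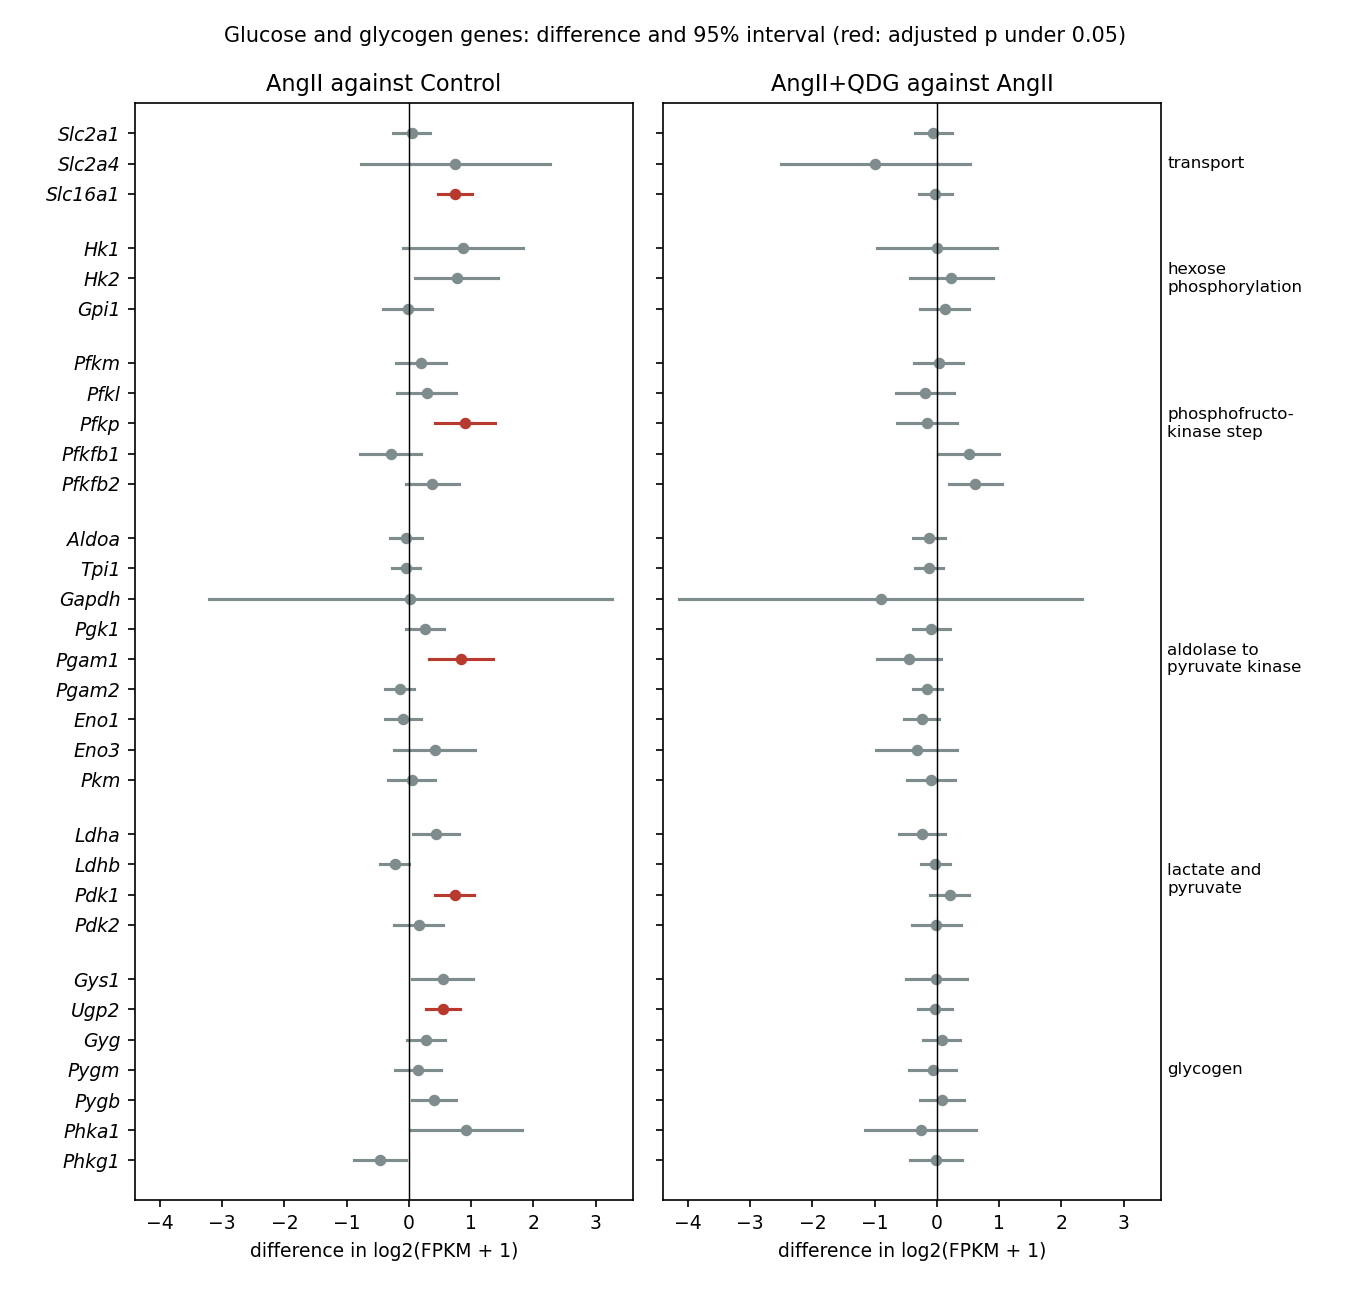
Difference in log2(FPKM + 1) (horizontal axes) with its 95% interval for the 31 tested members, by stage of the route, in AngII against Control (left) and AngII+QDG against AngII (right); red marks an adjusted p under 0.05. The 5 red points on the left lie between 0.55 and 0.90, and none on the right is red.

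The stretch from aldolase to pyruvate kinase held the most abundant member and 1 call. Aldoa, the muscle aldolase, was at 1341, 1339, 1235, 1557 and 997 FPKM for Control, 1229, 1151, 1387, 1261 and 1187 for AngII and 1137, 1259, 1359, 1020.3 and 950.1 with AngII+QDG. Its groups overlapped, with log2 differences of -0.05 ± 0.12 and -0.17 ± 0.12 from Control. Of the 9 genes from aldolase to pyruvate kinase, 1 was called in AngII and 0 in AngII+QDG against Control. That 1 was Pgam1, the widespread phosphoglycerate mutase, at 21.1, 23.4, 22.9, 28.1 and 9.77 FPKM for Control, 34.3, 36.1, 30.5, 36.9 and 46.1 for AngII and 37.9, 22.0, 22.8, 31.9 and 21.2 with AngII+QDG. All AngII libraries lay above all Control libraries, and AngII+QDG lay between and overlapped both. AngII exceeded Control by 0.84 ± 0.24 (limma adjusted p = 0.0366), a call lost in 12 of 30 alternatives, among them Control 1, 3 or 5 or AngII 1, 2, 4 or 5 left out. The muscle type Pgam2 stayed the main mutase, with 97.2 ± 0.81% of the pair's summed FPKM in Control, 94.7 ± 0.65% in AngII (below every Control library) and 95.5 ± 1.51% in AngII+QDG (overlapping).

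Other genes of this stretch were not called in any comparison. Triose-phosphate isomerase Tpi1 averaged 393 ± 63.4, 375 ± 7.13 and 344 ± 26.2 FPKM and phosphoglycerate kinase Pgk1 176 ± 40.05, 207 ± 13.8 and 195 ± 13.9. Of the enolases, the muscle type Eno3 averaged 369 ± 115, 472 ± 105 and 395 ± 129 FPKM and the widespread type Eno1 63.0 ± 8.57, 58.5 ± 3.63 and 50.0 ± 9.73. A pair of Eno1 transcripts was listed for Control and AngII alone, and on transcripts listed for every group the Eno1 difference of AngII+QDG from Control was -0.22 in place of -0.34 (log2). Gapdh, often used as a reference gene, cannot be read from these files: none of its 6 protein-coding transcripts was listed, and the 2 other transcripts summed to between 0.349 and 180.4 FPKM. Several of these genes, Gapdh, Pgam1, Eno1, Aldoa and Ldha among them, have processed pseudogenes or close paralogs with which reads could be shared, and how such reads were assigned is not given in the sources used here.

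Pyruvate kinase was level as a gene and uneven by transcript. Pkm averaged 481 ± 126, 478 ± 17.1 and 454 ± 71.9 FPKM. The gene carries a pair of mutually exclusive exons of 167 nt: Pkm-202 holds the upstream one (chr9:59675029-59675195, M1 type, the adult muscle form) and Pkm-201 the downstream one (chr9:59675568-59675734, M2 type, the form of proliferating and many non-muscle cells), in GENCODE M21 coordinates on GRCm38. Pkm-201 was at 130.8, 140.0, 132.9, 128.6 and 131.7 FPKM for Control, 95.6, 95.9, 95.3, 93.9 and 104 for AngII and 79.8, 108, 98.4, 96.7 and 72.4 with AngII+QDG. Every treated library lay below every Control library, and Control 5 was not low for this transcript. In a limma fit over 28475 transcripts it fell by 0.45 ± 0.10 on the log2 scale in AngII (adjusted p = 0.0385) and by 0.55 ± 0.10 in AngII+QDG (adjusted p = 0.00942). Of 82 member transcripts it was the 1 called lower in either comparison, where 0.274% of all transcripts were called lower in AngII and 0.976% in AngII+QDG (2.50% and 6.91% in either direction, and 0.0105% for AngII+QDG against AngII). Transcripts lower without overlap were 0.910% and 1.28% of all. The call in AngII was lost in 12 of 19 alternatives, 9 of them with 1 library left out (Control 1, 2, 3 or 5 or any AngII library), while its size stayed between -0.48 and -0.32. Pkm-202 was at 411.8, 342, 325, 406 and 127 FPKM for Control, 352, 339, 362, 384 and 349 for AngII and 332, 391, 387, 260.5 and 282 with AngII+QDG, and was not called (log2 differences 0.26 ± 0.26 and 0.13 ± 0.26). The M2-type transcript made up 31.4 ± 11.2% of the pair's FPKM for Control, 21.4 ± 1.27% for AngII and 21.8 ± 3.07% with AngII+QDG, and AngII alone did not overlap Control; without Control 3 and Control 5 the Control mean was 25.7%. Both transcripts also differ in their first and last exons (282 against 77 nt and 648 against 462 nt), so the values do not rest on the exclusive exons alone.

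**Figure D3:**
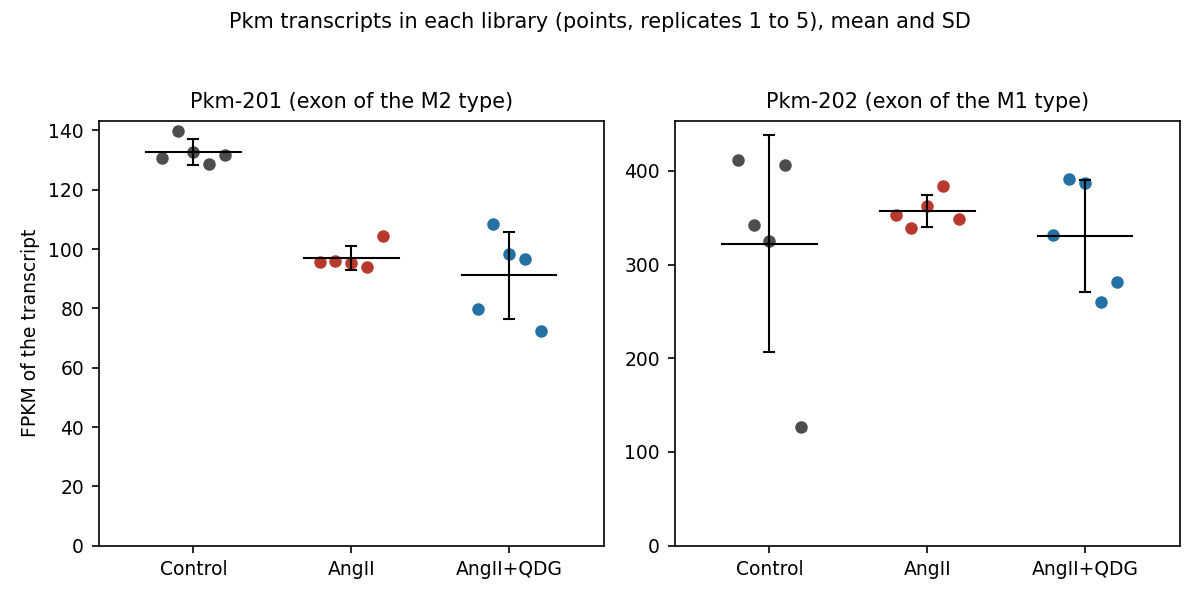
FPKM (vertical axes, from 0) of Pkm-201 (left) and Pkm-202 (right) in each library of the 3 groups; bars are the mean and SD over 5 libraries. Pkm-201 lies between 128.6 and 140.0 in Control and at or below 108 in all treated libraries, whereas Pkm-202 overlaps between groups and is lowest in Control 5 (127).

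Lactate dehydrogenase was mainly of the heart type. Ldhb was at 1154, 1235, 1456, 1332 and 961 FPKM for Control, 1061, 987, 1116, 1013 and 1007 for AngII and 962, 1232, 1043, 970.4 and 903 with AngII+QDG. AngII lay within the lower part of the Control range, and the log2 difference of -0.23 ± 0.11 was not called (limma adjusted p = 0.164). Ldha, the muscle and hypoxia-induced type, was at 207, 193, 202.4, 200.9 and 151 FPKM for Control, 283, 273, 259, 185 and 303 for AngII and 167, 272, 266, 245 and 165 with AngII+QDG. Of the AngII libraries 4 lay above all of Control and AngII 4 lay within it, and the difference of 0.44 ± 0.17 was not called (adjusted p = 0.0967). The Ldhb share of the pair was 86.5 ± 1.08% in Control, 79.98 ± 2.99% in AngII, below every Control library, and 82.2 ± 2.58% in AngII+QDG, which overlapped both.

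Of the pyruvate dehydrogenase kinases, which switch off the complex that feeds pyruvate carbon to the mitochondria, Pdk1 was higher in both treated groups. Pdk1 was at 16.1, 12.4, 13.9, 19.0 and 9.65 FPKM for Control, 24.8, 28.0, 20.2, 23.5 and 22.7 for AngII and 30.9, 28.3, 25.4, 26.2 and 26.8 with AngII+QDG. Neither treated group overlapped Control. The log2 difference was 0.73 ± 0.15 in AngII (limma adjusted p = 0.0141) and 0.94 ± 0.15 in AngII+QDG (adjusted p = 0.00227), a mean of 1.94-fold. Pdk2, the more abundant kinase, averaged 147 ± 45.6, 158 ± 6.41 and 158 ± 25.1 FPKM and was not called. The Pdk1 share of the pair was 9.07 ± 1.68% for Control, 13.2 ± 1.62% for AngII and 15.1 ± 2.11% with AngII+QDG, above every Control library in both treated groups.

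**Figure D4:**
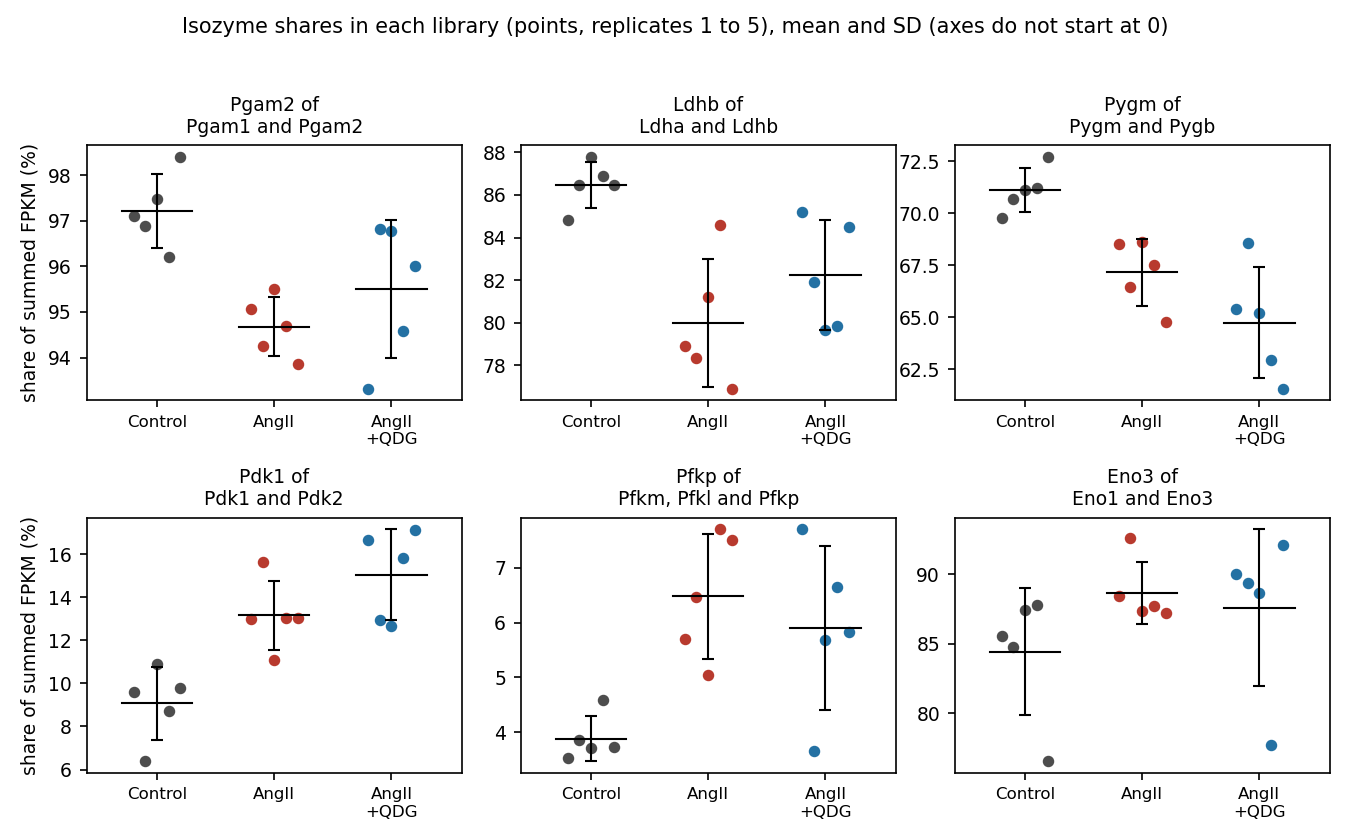
Share of summed FPKM (vertical axes in percent, not starting at 0) held by 1 isozyme of 6 pairs or sets, in each library; bars are the mean and SD over 5 libraries. The mean Pygm share is 71.1% for Control, 67.2% for AngII and 64.7% with AngII+QDG, with no overlap of either with Control, and the Pdk1 share lies above every Control library in both treated groups.

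In glycogen metabolism Ugp2, which makes the UDP-glucose that glycogen synthase uses, was the member called. It was at 67.3, 61.2, 91.1, 76.6 and 66.7 FPKM for Control, 107, 105, 82.4, 116 and 126 for AngII and 116, 99.3, 107, 89.8 and 109 with AngII+QDG. Only Control 3 reached into the treated ranges. The log2 difference was 0.55 ± 0.13 in AngII (limma adjusted p = 0.0207) and 0.52 ± 0.13 in AngII+QDG (adjusted p = 0.0130). Phka1, the muscle regulatory subunit of phosphorylase kinase, was at 5.55, 6.19, 4.05, 6.78 and 0.00898 FPKM for Control, 8.02, 7.71, 6.75, 7.87 and 7.31 for AngII and 7.70, 5.65, 6.36, 5.75 and 5.29 with AngII+QDG. Control 5 held 4 fragments of it, Control 4 alone of its group reached into the AngII range, and the difference of 0.92 ± 0.42 was not called (adjusted p = 0.149). The catalytic subunit Phkg1 averaged 8.54 ± 2.74, 5.76 ± 1.05 and 5.73 ± 1.30 FPKM and was not called either. Phkg1-203 and Phkg1-205 were listed for Control and AngII alone. On the 1 transcript listed for every group, which is protein-coding, AngII+QDG differed from Control by -0.28 ± 0.19 in place of -0.48 and from AngII by 0.13 ± 0.19 in place of -0.01. Gbe1, listed by none of its 4 protein-coding transcripts, was at 0.104 to 7.03 FPKM in Control and 0.0597 to 0.341 in AngII, and Phkb, listed by 1 of 4, at 0 to 3.12 and 0 to 0.0905.

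Glycogen phosphorylase of the muscle type, Pygm, was the most abundant glycogen gene, at 368, 360.1, 282, 459 and 219 FPKM for Control, 392, 341, 362, 369.8 and 342 for AngII and 349, 438, 392, 295 and 272 with AngII+QDG. These groups overlapped, and the log2 difference of AngII from Control was 0.14 ± 0.17. The brain type Pygb averaged 138 ± 40.2, 176 ± 7.77 and 188 ± 17.0 FPKM, with differences from Control of 0.40 ± 0.17 (limma adjusted p = 0.115) and 0.49 ± 0.17 (adjusted p = 0.0532). The Pygm share of the pair was 71.1 ± 1.07% for Control, 67.2 ± 1.60% for AngII and 64.7 ± 2.68% with AngII+QDG, and in both treated groups it lay below every Control library, Control 5 included. Glycogen synthase Gys1 averaged 19.9 ± 10.03, 27.5 ± 4.31 and 27.3 ± 4.07 FPKM and glycogenin Gyg, the protein primer, 43.8 ± 10.4, 51.9 ± 3.07 and 54.7 ± 3.38, and neither was called. The 10 shares were chosen after their values were seen and were not tested, because no test across all genes applies to them. Those of Slc2a4, Hk2, Pfkm and Eno3 overlapped Control in both treated groups. How often shares of other gene pairs would lie apart was not measured. Among gene pairs, the isozymes gaining share in AngII without overlap had the longer listed transcripts. These were Pygb (3909 nt against 2874 for Pygm), Pgam1 (1775 against 840), Ldha (1815 against 1304) and Pdk1 (5185 against 2246). Protein-coding Pfkp-207 had 4145 nt, against 2879 for Pfkm. Pkm-201, which lost share, was instead the longer of its pair (2432 against 2041 nt). How far the relatively higher short transcripts of Control enter the shares was not tested.

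Across the 31 members, the median log2 difference of AngII from Control was 0.27, against 0.20 over all 12267 genes. The summed FPKM of all tested members was 6380 ± 1117, 6475 ± 67.2 and 6054 ± 765 in the order of the groups, with overlap. Of the members, 23 (74.2%) lay above 0 and 8 below, and 11 (35.5%) had an unadjusted p under 0.05, where 72.1% of all genes lay above 0 and 31.5% had such a p. The groups did not overlap for Slc16a1, Pgam1 and Pdk1 (3 of 31 higher and 0 lower, where 10.1% of all genes were higher and 1.00% lower without overlap). With median scaling, which moved the median of all genes to -0.06, 7 members were called, 4 higher (Slc16a1, Pfkp, Pgam1 and Pdk1) and 3 lower (Tpi1, Ldhb and Phkg1), beside 8.77% of all genes. The AngII-against-Control differences followed transcript length: Spearman's rho across the 31 members was 0.60, against 0.44 across all genes, where genes of 1 sample set are not independent. Length here, and in the length trend below, is that of a gene's longest listed transcript of any type or level. Pfkp thus enters at 8681 nt by Pfkp-212, which retains an intron, whereas its protein-coding Pfkp-207 has 4145 nt. The 10 members under 2000 nt had a median difference of 0.11 and the 21 longer ones 0.38. With the balance of short and long transcripts entered in the fit as a covariate, or with each library's length trend removed, 0 of the 5 calls remained (0% and 2.80% of all genes were called). The covariate fit gave Slc16a1 0.53 ± 0.19, Ugp2 0.49 ± 0.21, Pdk1 0.24 ± 0.17, Pgam1 0.15 ± 0.32 and Pfkp 0.11 ± 0.26. With the length trend removed the log2 differences were 0.40 ± 0.11 for Slc16a1, 0.33 ± 0.13 for Ugp2, 0.37 ± 0.10 for Pdk1, 0.73 ± 0.19 for Pgam1 and 0.51 ± 0.16 for Pfkp. Without Control 3 and Control 5, which moves the background from 13.4% to 0.793%, Slc16a1 and Ugp2 remained. Single libraries also moved the count: it was 2 (Slc16a1 and Pdk1) without AngII 2, AngII 4 or AngII 5 (2.48%, 3.88% and 4.17% of all genes), 3 without Control 3 (5.94%) and 8 without Control 4 (20.3%).

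**Figure D5:**
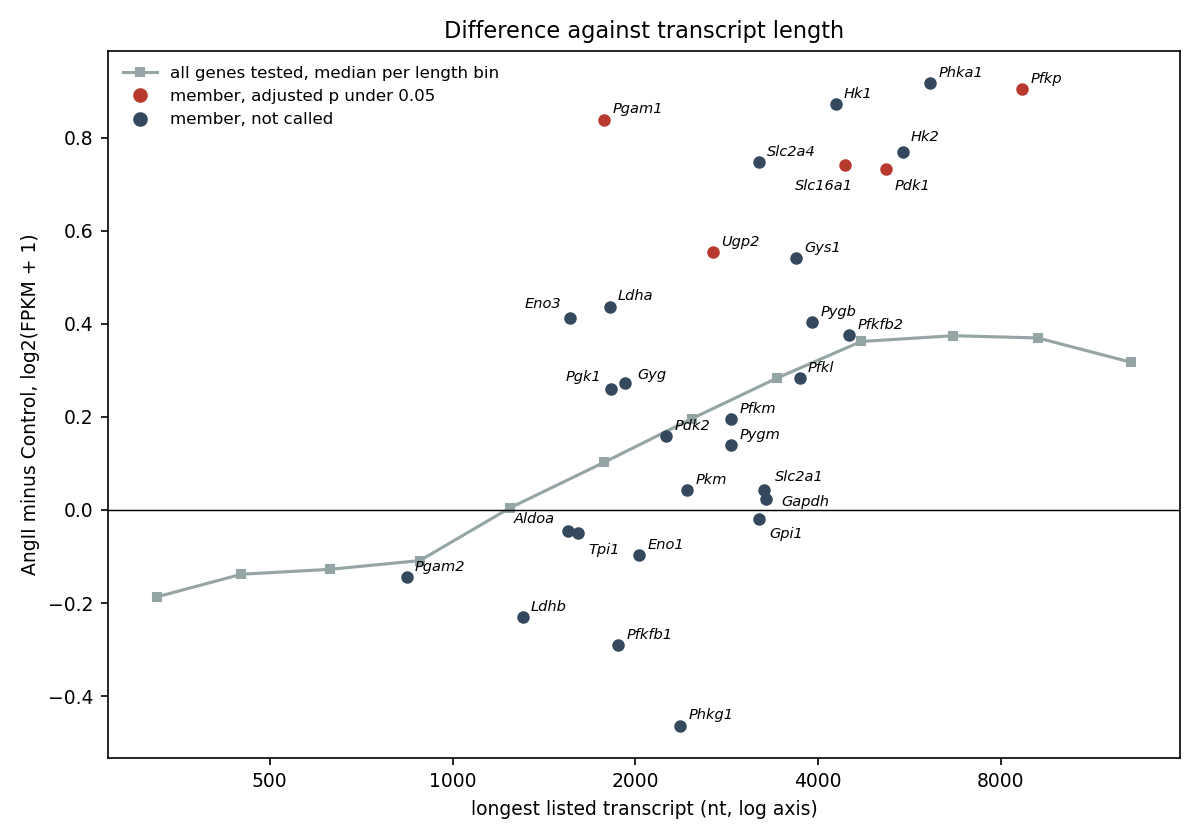
AngII minus Control on the log2(FPKM + 1) scale (vertical axis) against the longest listed transcript of each of the 31 members (horizontal log axis, nt); the grey line joins the medians of all genes tested in length bins. Members under 2000 nt have a median of 0.11 and longer ones of 0.38, and 4 of the 5 called members are among the longer.

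Balance and group moved together here, and the part of the balance in these calls cannot be told apart from that of the treatment. Pgam1 (1775 nt) was the only called member under 2000 nt. The spread between mice was also unequal: the median coefficient of variation over members was 27.2% for Control, 14.1% for AngII and 15.4% with AngII+QDG, and 25 of 31 members varied most in Control (62.6% of all genes did).

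The addition of QDG to AngII is the comparison of AngII+QDG with AngII. In it, 0 of 31 members and 0% of all 12267 genes were called in limma, with 2 members (Pfkfb2, and Pfkfb1 on the sum that includes Pfkfb1-207) and 578 genes at an unadjusted p under 0.05 (6.45% and 4.71%). The voom fit on recovered fragments also called 0 members, and 1 gene of all (0.00815%). All 31 members overlapped between these groups (0.595% of all genes were higher and 0.799% lower without overlap), and the median difference was -0.06, against -0.02 for all genes. The ranges of the short-against-long balance overlapped between these groups (0.64 to 0.89 and 0.77 to 0.96). The 95% intervals were narrow for some members, such as Slc16a1 (-0.29 to 0.24), Ugp2 (-0.30 to 0.24) and Aldoa (-0.39 to 0.13), and wide for Slc2a4 (-2.50 to 0.53). These intervals rest on 1 spread estimated over all 15 libraries, so outlying Control libraries can widen them. For Slc2a4 that spread includes Control 5, at 3.73 FPKM. The Hk2 difference of 0.23 had an SE of 0.31, and of 0.13 without Control 3 and Control 5. With the 2 treated groups fitted alone, 0 members and 0% of all genes were called.

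AngII+QDG libraries were higher than Control for 6 of 31 members, Slc16a1, Hk2, Pfkp, Pfkfb2, Pdk1 and Ugp2, and lower for 0. This is 19.4% of the members, where 19.4% of all genes were called, 16.0% higher and 3.31% lower. The groups did not overlap for Slc16a1, Hk2, Pfkfb2 and Pdk1, all higher, where 12.8% of all genes were higher and 1.73% lower without overlap. The median difference was 0.17 for members and 0.18 for all genes. Median scaling gave 10 calls, 4 higher and 6 lower (Aldoa, Tpi1, Pgam2, Eno1, Ldhb and Phkg1), with 19.7% of all genes called. Quantile normalization gave 9, 7 higher and 2 lower (Eno1 and Phkg1), with 16.2%. Both settings kept the Eno1 and Phkg1 transcripts that were not listed for AngII+QDG. Without Control 5 alone it was 10, 5 higher and 5 lower (Slc2a4, Tpi1, Pgam2, Eno1 and Ldhb), with 16.4% of all genes. The Hk2 call was lost without Control 5 or any 1 of the AngII+QDG libraries, and the Pfkp call without Control 3, Control 5, or AngII+QDG 1, 3 or 4. Without Control 3 and Control 5 together the count was 7, 5 higher and 2 lower (Tpi1 and Eno1), with 9.83%. This comparison and that of AngII with Control share the same Control libraries, so calls they have in common are not independent.

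The pathway's other genes, from lists drawn up with earlier results of these data known, add steps next to the members. Their counts stand beside 11.9% of all genes called higher in AngII and 16.0% in AngII+QDG, and with the balance as a covariate 0% of all genes were called in either comparison with Control. Of 12 genes of pyruvate entry to mitochondria, 6 were higher in AngII and 6 in AngII+QDG than in Control, and 0 were lower. Pdpr, which regulates the phosphatase that reactivates pyruvate dehydrogenase, averaged 1.91 ± 1.09 FPKM in Control, 8.21 ± 2.94 in AngII and 11.2 ± 4.29 after QDG (log2 difference 1.69 ± 0.29, limma adjusted p = 0.00805, in AngII). The kinase Pdk4 averaged 19.9 ± 10.98, 42.5 ± 9.07 and 49.4 ± 17.7 FPKM (1.17 ± 0.29, adjusted p = 0.0262), and Dld, the shared dehydrogenase subunit of the complex, 113 ± 17.0, 152.7 ± 13.2 and 160.4 ± 12.9 (0.44 ± 0.11, adjusted p = 0.0222). A kinase that restrains the complex and a regulator of the phosphatase that reactivates it were both higher.

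Of 20 further glycogen genes, 5 were higher in AngII and 8 in AngII+QDG, and 0 were lower. Ppp1r3c, which targets protein phosphatase to glycogen, averaged 21.2 ± 6.68, 44.0 ± 3.95 and 41.0 ± 5.65 FPKM (1.07 ± 0.18, limma adjusted p = 0.00801, in AngII). Of 16 regulators of glucose transport, 5 were higher and 1 lower in AngII, and 6 higher and 1 lower in AngII+QDG. Txnip, an inhibitor of glucose uptake, averaged 62.3 ± 21.8, 134.9 ± 35.2 and 195 ± 43.9 FPKM (1.13 ± 0.24, adjusted p = 0.0166, in AngII). Insr, the insulin receptor, was the 1 lower, at 3.52 ± 0.248, 1.33 ± 2.51 and 0.149 ± 0.131 FPKM (-1.41 ± 0.38, limma adjusted p = 0.0316). In AngII its SD exceeded its mean, so the level was far from even between those libraries.

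Among 15 transcription factors of glycolytic genes, 3 were higher in AngII (Arnt, Hif1a and Epas1, subunits of hypoxia-inducible factors) and 6 in AngII+QDG. Arnt averaged 0.564 ± 0.342, 2.95 ± 0.561 and 3.17 ± 0.870 FPKM and Hif1a 3.85 ± 0.347, 6.60 ± 1.17 and 5.86 ± 1.13. Of 5 further hexose transporters and hexokinases 0 were called in AngII and 1 in AngII+QDG (Slc2a12, higher), and of 9 further glycolysis genes 0 and 1 (Pfkfb4, higher). The pentose phosphate pathway had 0 and 1 of 8 (Pgls, lower), the hexosamine pathway 1 and 1 of 6 (Uap1, then Mgea5, both higher) and the polyol pathway 0 and 0 of 3. None of these genes was called in AngII+QDG against AngII.

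Markers of other cells of the heart were read as summed levels. The sum of 7 endothelial markers was 118 to 205 FPKM for Control, 167 to 238 for AngII and 142 to 193 with AngII+QDG, of 7 fibroblast markers 443 to 699, 612 to 883 and 626 to 879, and of 7 macrophage and leukocyte markers 157 to 311, 166 to 302 and 172 to 231. Smooth muscle and pericyte markers (6) summed to 131 to 237, 225 to 347 and 179 to 285, with Myh11 and Pdgfrb at 0 in at least 1 library, as was the fibroblast marker Col1a2. In AngII against Control, 1 of 6 smooth muscle and 1 of 10 cardiomyocyte markers were called, both higher, and 0 of the endothelial, fibroblast and leukocyte ones. In AngII+QDG against Control, 2 of 7 fibroblast markers were higher, 1 of 7 endothelial ones higher and 1 lower, and 1 of 5 red cell ones lower. Of 5 atrial markers 3 were listed, with sums of 171 to 474, 264 to 773 and 213 to 435 FPKM, and of 6 adipocyte markers 1 was; none of these was called. The 5 markers of red blood cells summed to 3795 to 12221 FPKM for Control, 2198 to 9324 for AngII and 2698 to 9472 with AngII+QDG, a wide range within each group. The part of these cells in the widespread isozymes was not tested.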

How the data were processed

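RNA from 15 mouse hearts was sequenced after rRNA depletion, per the labels' protocols. The deposited values are FPKM per transcript as the authors left them. The unit was read from the values, the submitters' processing notes name GRCm38 and limma, while no source used here names the aligner or counter. Low values fell within 0.1 of whole steps for 99.0 to 99.7% of entries. Ensembl transcripts were summed to genes by GENCODE M21 gene ID, and 8634 assembled transcripts without a gene name were not used. A gene was tested if 5 or more libraries reached 0.5 FPKM, which left 12267. Log2(FPKM + 1) was fitted with limma 3.58.1 in R 4.3.3 (trend and robust options) over all 15 libraries with 12 residual degrees of freedom. Benjamini-Hochberg adjustment covered all genes tested, with a threshold of 0.05. Fold changes on this scale understate those of low genes. On simulated data for AngII against Control with 12267 genes, recovery was 68% for simulated shifts of 1 on the log2 scale and 93% for shifts of 2. The simulation drew genes independently, with the same spread in every group and no outlying libraries. Only genes with a mean above 1 on that scale were shifted. Recovery under the unequal spread and balance of these libraries was not measured. Other steps used Python 3.11.15. Of the 15 libraries, 0 pairs held identical values, and the series' design text gives 5 mice per group. The members, the further lists and the tests were chosen with earlier results of these data known. Values of every library are given for members called in any comparison and, in each stage, for the most abundant member and those with the smallest p in AngII against Control and in AngII+QDG against AngII; at most 3 genes are named per further list. The Pkm transcripts and the isozyme shares were chosen after their values were seen. The alternatives were other pseudocounts, filters, scalings and fits, and each library left out. The voom fit on fragments read back from FPKM was added after the data were seen.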

Additional observations from a re-analysis of the deposited data

Results flagged for a closer look

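Of 127 groups of 5 values (members and isozyme shares), 13 held a library whose gap to the nearest other exceeded 0.71 of the group's range, where chance gives about 1 in 20 groups. Control 5 held 6 of the 13. In Control 5, Eno3 was at 168 FPKM where the other Control libraries had 396 to 459, Ldha at 151 (193 to 207) and Gbe1 at 7.03 (0.104 to 0.532). The Control 5 shares were 46.5% for Slc2a4 of the glucose transporter pair (93.1 to 96.7), 76.5% for Eno3 of the enolases (84.8 to 87.8) and 51.0% for Pkm-201 (24.1 to 29.1). Eno3 also stood apart in AngII 2, at 659 FPKM (others 403 to 445), and in AngII+QDG 4, at 169.0 (423 to 484), with shares of 92.6% (87.2 to 88.4) and 77.7% (88.7 to 92.1). Slc16a1 was at 35.9 FPKM in AngII+QDG 2 (others 48.1 to 52.0) and Gbe1 at 0.341 in AngII 3 (0.0597 to 0.0806). The Slc2a4 share was 82.6% in AngII+QDG 3 (91.4 to 93.5).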

How the results depend on the processing

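Under 30 alternatives for each comparison, other pseudocounts, no filter or a stricter one, limma without the robust option and transcripts listed in all files gave the same counts of members called as reported (5 in AngII and 6 in AngII+QDG against Control). AngII+QDG against AngII gave 0 members under all 30. Shares of all genes called stand in brackets. In AngII against Control the count was 1 when the 2 groups were fitted alone (2.20%) and 2 without Control 3 and Control 5 (0.793%). It was 8 with mitochondrial transcripts left out (22.7%), and 0 with the length trend removed (2.80%) or with the balance as a covariate (0%). In AngII+QDG against Control it was 10 with median scaling (19.7%) and 3 with the length trend removed (10.8%). It was 0 with the covariate (0%), where Hk2 (-0.40) and Pfkp (-0.13) changed sign. With 1 library left out the counts ranged from 2 to 8 in the former and from 4 to 10 in the latter. Over single members, 2686 results kept their side of the threshold, 60 became weaker, 36 stronger and 2 reversed. Of 2418 that passed in neither setting, 164 had another sign. The cause of these changes was not tested. The replicate numbers did not pair the libraries: 0 of 15 same-numbered pairs correlated above 0.1 (-0.096 to 0.087), and 2 of 15 libraries correlated best with their own number. With the replicate number as a block 3 members were called in AngII against Control (4.21% of all genes), and the other comparisons kept their counts. The Control libraries limit all comparisons with Control, since their spread is widest for most members. Through the spread shared by all groups in the fit, they also enter the SE of AngII+QDG against AngII.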
